A study of Mus musculus with 6 samples.

Results

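This account covers the Runx1 peaks called at day 14 after bleomycin, on chromosomes 1 to 19, in fibroblasts of the mouse lung. The deposited day 14 peak list held 56331 peaks, and all of its 55378 peaks on chromosomes 1 to 19 (98.3%) were taken, with no choice by strength. The series holds 96399 peaks over 3 lists, 1 each from sham-injured lungs and from lungs at day 14 and day 56 after bleomycin. The mice carried Col1a2-CreERT2 and mTmG, so that Cre driven by the collagen gene Col1a2 turns a membrane reporter from red to green, and the sorted cells were the GFP+ ones. Bleomycin, given into the trachea, injures the lung and is followed by fibrosis. The group used here is the bleomycin-injured lung at day 14, with 1 Runx1 chromatin immunoprecipitation (ChIP-seq) library and its own input library, both from mice of that genotype. The sources used here do not give the number and sex of the mice behind the library, or the tamoxifen schedule that CreERT2 needs. The reporter marks cells in which Col1a2 was active when Cre was switched on, which need not be a single kind of fibroblast.

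With 1 ChIP library there were no replicates, so no test was made and no p-value is given. Shares carry 95% Wilson intervals, which cover counting error only, and amplified reads are not independent molecules. The ChIP library held 78744701 tags and the input 49312043 tags, 62.6% as many. In cells taken as a bulk, a site bound in fewer cells and a site bound less in each cell cannot be told apart.

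Runx1 is a DNA-binding transcription factor that pairs with the partner subunit Cbfb and reads a short core sequence, TGTGGT or its reverse complement. It is best known for blood cell development, and its relatives Runx2 and Runx3 act in bone and in T cells and neurons. Runx proteins work at promoters and at distant enhancers, often beside ETS and AP-1 proteins, and recruit both activators and corepressors of the Tle family. A ChIP-seq peak marks a stretch where fragments pulled down by the antibody outnumber those of the input.

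Promoters at some of the sites of highest enrichment are printed here, and each shows only a part of what lay under its peak. The peaks of the first 4 were 980 to 1525 bp wide. The 250 bases before the annotated start are printed 5′ to 3′ on the strand of the gene, from RefSeq, build GRCm38.p6 (mm10). Capitals mark CCAAT, the box bound by the factor NF-Y, or the Runx core TGTGGT, each in either orientation (ATTGG and ACCACA are the reverse complements). Those at ranks 2, 5 and 6 by fold enrichment are not printed. The first 4 promoters belong to genes at ranks 1, 3, 7 and 4. They are Tspan14 (chr14:40966897-40967146, minus strand), a tetraspanin that carries the protease ADAM10, and Wfs1 (chr5:36988983-36989232, minus strand), a membrane protein of the endoplasmic reticulum. The others are Rmnd5a (chr6:71440638-71440887, minus strand), a subunit of the CTLH ubiquitin ligase, and Rab22a (chr2:173659595-173659844, plus strand), a small GTPase of endosomes. None of the 4 held the Runx core in the RefSeq window, which says only that these letters are not in it.
Tspan14: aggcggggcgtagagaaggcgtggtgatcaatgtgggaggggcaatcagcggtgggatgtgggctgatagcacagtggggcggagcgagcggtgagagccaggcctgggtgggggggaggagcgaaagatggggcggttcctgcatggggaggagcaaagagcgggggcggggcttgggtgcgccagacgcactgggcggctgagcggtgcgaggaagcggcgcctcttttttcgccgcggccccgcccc
Wfs1: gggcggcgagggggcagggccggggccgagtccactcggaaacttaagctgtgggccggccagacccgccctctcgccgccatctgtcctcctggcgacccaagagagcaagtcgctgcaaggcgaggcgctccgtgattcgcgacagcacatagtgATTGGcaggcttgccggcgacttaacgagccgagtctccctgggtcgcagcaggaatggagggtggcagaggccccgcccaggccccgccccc
Rmnd5a: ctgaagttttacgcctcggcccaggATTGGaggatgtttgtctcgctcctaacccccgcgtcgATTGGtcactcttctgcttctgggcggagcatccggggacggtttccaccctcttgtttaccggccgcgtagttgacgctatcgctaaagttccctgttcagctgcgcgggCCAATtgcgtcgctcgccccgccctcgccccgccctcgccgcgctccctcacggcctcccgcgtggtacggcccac
Rab22a: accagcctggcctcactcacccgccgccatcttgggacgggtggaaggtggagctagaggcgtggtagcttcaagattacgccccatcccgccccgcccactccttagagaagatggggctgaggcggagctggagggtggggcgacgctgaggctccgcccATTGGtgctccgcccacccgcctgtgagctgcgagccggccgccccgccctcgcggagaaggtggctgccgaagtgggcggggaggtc

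Of the 25 RefSeq promoter windows with the highest pileup under them, 2 held the Runx core and 17 held CCAAT. Over all 20084 windows the shares were 14.8% and 38.1%, and 25 windows are few for a comparison. The promoters with the core, chosen after their values were seen, were those of Cdk4 (chr10:127063285-127063534, plus strand), the cell-cycle kinase, and Efcab14 (chr4:115737520-115737769, plus strand). A match is a description of the letters and not of a site.
Cdk4: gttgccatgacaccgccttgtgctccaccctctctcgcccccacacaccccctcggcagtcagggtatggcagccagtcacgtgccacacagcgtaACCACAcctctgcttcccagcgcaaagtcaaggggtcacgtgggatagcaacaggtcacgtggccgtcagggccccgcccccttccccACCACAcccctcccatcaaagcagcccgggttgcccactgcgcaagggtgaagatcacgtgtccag
Efcab14: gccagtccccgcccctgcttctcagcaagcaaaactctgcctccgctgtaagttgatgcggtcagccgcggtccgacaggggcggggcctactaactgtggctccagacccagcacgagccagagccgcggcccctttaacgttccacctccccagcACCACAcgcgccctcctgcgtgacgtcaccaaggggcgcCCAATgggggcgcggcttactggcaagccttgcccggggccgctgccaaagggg

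The highest pileups and the highest fold enrichments were at different places. Pileup is the authors' count of overlapping ChIP fragments at the summit, after the larger library was scaled to the smaller. Fold enrichment is the authors' ratio of that pileup to the local background. Dividing pileup by fold gives an approximate local background, called the implied background below. Over all day 14 peaks the pileup ran from 13 to 2176 with a median of 35, and fold from 1.57 to 59.8 with a median of 5.67. The median implied background was 5.90, and 95% of peaks lay at or below 9.85.

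Of the 25 peaks with the highest pileup, 20 had an implied background of 15 or more, a level reached by 86 of all peaks (0.155%). This level was chosen after the values were seen. The highest site, chr17:39842982-39848841, was also the widest, at 5860 bp, with a pileup of 2176, a fold of 12.7 and an implied background of 172. It covers Rn18s-rs5, a pseudogene of the ribosomal RNA locus at chr17:39846354-39848202. Lars2, which encodes the mitochondrial leucyl-tRNA synthetase, held the next site (chr9:123461820-123462207, pileup 1364, fold 18.2, implied background 74.9). A site on chromosome 3 with no gene within 100 kb followed, with a pileup of 1137. Sites inside Filip1l (pileup 1100) and Zc3h7a (910) and a site 61206 bp from Axin2, an inhibitor of Wnt signalling (889), came after it. A site 21293 bp from Ly6c2 had a pileup of 727 and the lowest fold of all day 14 peaks, 1.57, over an implied background of 462. Hjurp, the chaperone of the centromeric histone, had the highest fold of the 20, 24.3, at a summit 21 bp from its gene end. These 20 sites had a median width of 395.5 bp, and 6 of them lay within 1 kb of a gene end.

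The other 5 of the 25 highest pileups were mostly wider and of higher fold. Their median width was 1143 bp, their folds ran from 22.7 to 59.8 and 4 of the 5 lay within 1 kb of a gene end. Rnf44, a RING-finger gene, had a pileup of 397 and a fold of 49.8 (chr13:54693130-54694933). Rmnd5a had 300 and 50.3, Tspan14 279 and 59.8, and Dcbld2, a membrane receptor, 279 and 35.0. The remaining site, chr8:20122110-20122666, was 557 bp wide with a fold of 22.7, 14012 bp from a gene end. Its implied background, 13.9, was just under the chosen level of 15.

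All 25 peaks with the highest fold had a summit within 1 kb of a gene end. Their folds were at least 44.2, their pileups lay between 197 and 397, and their implied background was at most 7.98. The order began with Tspan14 and Zbtb18, a zinc-finger repressor (59.3). Then came Wfs1 (57.0), Rab22a (51.7) and Rnf138, a ubiquitin ligase (50.9). Cycs, which encodes cytochrome c of the respiratory chain, had a fold of 50.3, Chchd7 49.9 and Mtmr12 48.9. Ranks by pileup and by fold shared 3 of their first 25 peaks, and ranks by pileup and by −log10 q shared 14.

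**Figure D1:**
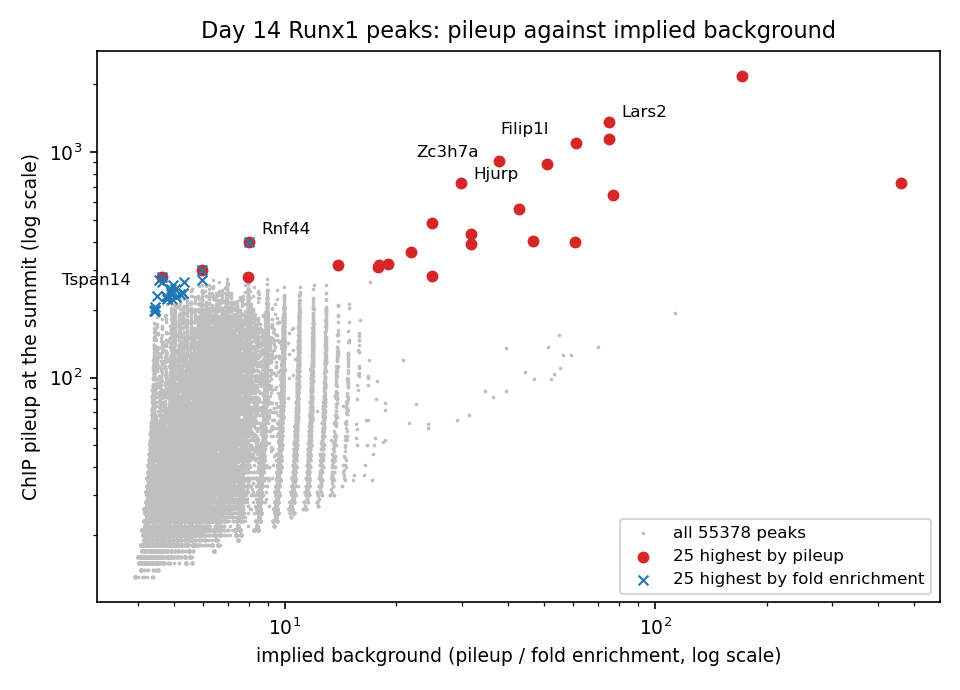
Pileup at the summit against the implied background (pileup divided by fold enrichment) for each of the 55378 day 14 peaks, both axes on a log scale. Red circles, the 25 highest pileups, mostly sit right of 15, and blue crosses, the 25 highest folds, all sit at or below 7.98.

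Day 14 peaks were narrow. The median width was 282 bp, with quartiles of 191 and 462 bp, and 1183 peaks (2.14%) sat at the smallest width in the list, 132 bp, which is also the fragment length set in the file header. The peaks together covered 20.4 Mb. Only 1674 peaks (3.02%) were wider than 1 kb and 18 were wider than 2 kb. Width followed pileup, with a Spearman correlation of 0.789 across peaks, which are not independent replicates and share 1 library. From the lowest to the highest decile of pileup the median width went from 164 to 732 bp.

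After the ribosomal site, the next 9 by width had pileups of 43 to 182, of which 6 were in the highest decile (108 or more). A site in the predicted gene Gm20783, 119 bp from a gene end, was 3522 bp wide, and the nearest named coding gene, Ppp2r3d, lay 50681 bp away. A peak just past the end of Nr4a1, an orphan nuclear receptor induced within minutes of stimulation, was 3508 bp wide (chr15:101275001-101278508). Its summit lay 1886 bp past the gene end at 101274795 and had a pileup of only 43. Egr1, a zinc-finger immediate-early factor, had 3446 bp and a pileup of 129, and Jun, a subunit of AP-1, had 2898 bp and 182. A 2587 bp peak lay in the long noncoding RNA gene Neat1, which builds nuclear paraspeckles. The inducible heat shock gene Hspa1a had 2489 bp and a pileup of 60, and Skil, a repressor of Smad proteins, had 2336 bp and 159. Klf9 (2318 bp) and Brwd1 (2288 bp) closed the first 10. Among the 25 widest were also peaks at Gadd45b (2128 bp), Midn (2116 bp), Jund (2046 bp), Fosb (2041 bp), Zfp36 (2021 bp) and Nfkb2 (1968 bp), which were picked out after their values were seen.

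Peaks in the highest decile of pileup sat mostly at gene starts, unlike most of the 25 highest pileups described above. Of all day 14 summits, 29.9% (29.6 to 30.3) lay within 1 kb of either end of an annotated gene of any type. This share was 17.8% (16.8 to 18.8) in the lowest decile of pileup and 81.7% (80.6 to 82.7) in the highest. Strand, and so the start, was known through the RefSeq promoter windows, which do not include chromosome 18 here. On the remaining chromosomes 24.5% of 53481 summits (24.1 to 24.9) lay within 1 kb of a start and 13.6% within 100 bp. The share within 1 kb of a start was 12.9% in the lowest decile, 27.0% in decile 8, 47.3% in decile 9 and 75.4% in the highest. It stayed between 11.5% and 14.7% over the lowest 6 deciles, so the rise lay in the upper 4.

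Most day 14 summits were nevertheless away from starts. Of all summits, 61.9% (61.5 to 62.3) lay inside a gene body, 13.8% outside genes and over 10 kb from any gene end, and 0.872% over 100 kb from one. Peaks inside a gene and over 1 kb from a start numbered 24460 (45.7%), with a median pileup of 31 and a median width of 251 bp. Those outside genes numbered 15915 (29.8%), with a median pileup of 31 and a width of 248 bp. Start peaks numbered 13106 (24.5%), with a median pileup of 71, quartiles of 35 and 120, and a width of 497 bp. Intragenic and intergenic peaks had almost the same quartiles of pileup, 23 to 45 and 23 to 46, and those of start peaks overlapped them at the lower end.

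**Figure D2:**
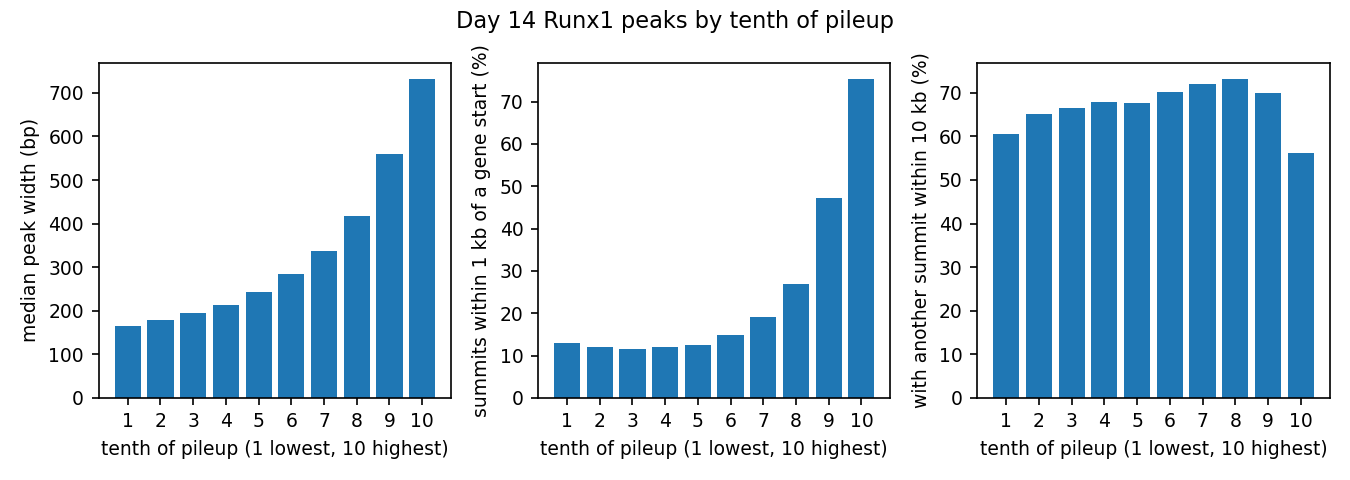
Median width (left), percent of summits within 1 kb of a gene start on the 18 chromosomes with start windows (middle) and percent of peaks with another summit within 10 kb (right) for each decile of pileup. Width and the share at starts rise to 732 bp and 75.4% in the highest decile, while the share with a neighbour is highest in decile 8, at 73.2%, and lowest in the highest, at 56.3%.

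Summits at protein-coding starts lay mostly just upstream. Of 11531 summits within 1 kb of a protein-coding start, the median position was 33 bp upstream (-33 bp) and 65.2% were upstream. In the highest decile of pileup the median was -59 bp, 82.7% of 3903 summits were upstream and 67.7% lay in the 150 bp before the start. In the lowest 5 deciles of pileup the median was 81 bp downstream and 40.8% of 2533 were upstream. The 3′ end of genes was seldom marked. Of 12774 protein-coding genes of 5 kb or more with a known strand, 63.1% (62.2 to 63.9) had a summit within 1 kb of the start and 7.11% (6.68 to 7.57) within 1 kb of the far end.

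**Figure D3:**
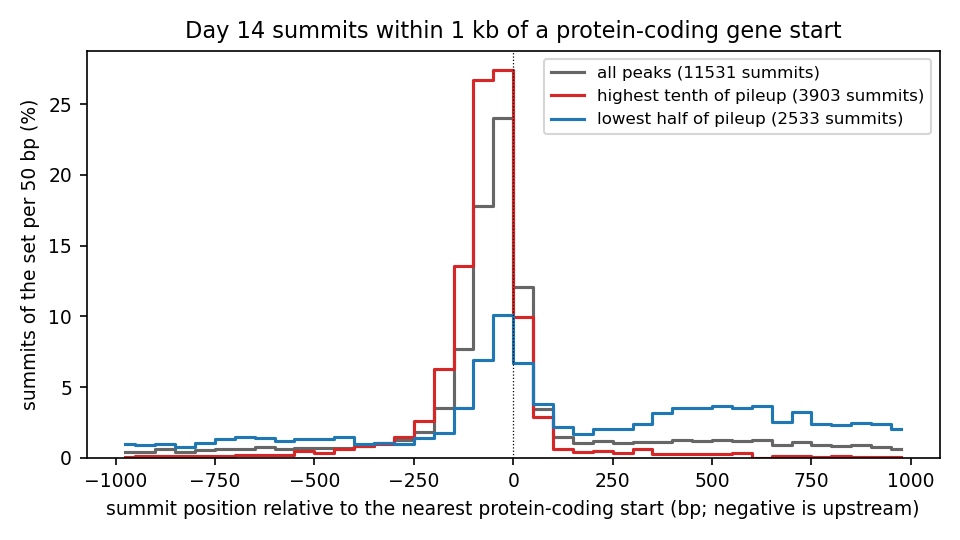
Position of day 14 summits relative to the nearest protein-coding start, in bins of 50 bp and as a percent of each set, for all peaks, the highest decile of pileup and the lowest 5 deciles. The highest decile is centred before the start (median -59 bp), and the lowest 5 reach far downstream of it (median 81 bp).

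Promoter sequence was compared between windows with and without a summit. The 20084 RefSeq windows of protein-coding genes run from 250 bases before to 50 bases after the start and belong to 16456 genes, and 8781 of them (43.7%) held a day 14 summit. Windows with a summit were richer in G and C, with a median of 62.7% against 51.0% without. Letters were searched on both strands, and no set of letters contains another. The Runx core TGTGGT was in 14.8% of all windows, 11.2% (10.6 to 11.9) of those with a summit and 17.5% (16.8 to 18.2) of those without. It was no more frequent under taller summits, at 11.4% in the lowest quintile of pileup and 11.8% in the highest, with overlapping intervals.

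Within classes of base composition the Runx core did not keep 1 order. It was in 14.8% (13.1 to 16.7) of windows with a summit and 20.9% (19.6 to 22.1) of those without at 45 to 55% GC. At 55 to 65% GC the shares were 12.9% and 15.6%. Above 65% GC they were 7.71% (6.87 to 8.65) and 5.98% (4.88 to 7.32), with intervals that overlap. At 45% GC or less they were 18.5% (12.9 to 25.9) and 19.9% (18.6 to 21.3), which overlap too. The lower share under summits was thus found, beyond the intervals, in the classes from 45 to 65% GC. Peaks away from promoters were not searched, since no genome sequence was used here.

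Of the other letters searched, 6 were more frequent under summits than in windows without, and those of AP-1 and TEAD were less frequent. The ETS letters CCGGAAG were in 11.9% of all windows, 20.6% (19.8 to 21.5) of those with a summit and 5.05% (4.66 to 5.47) of those without. They were the more frequent under summits in each class of base composition, with 23.2% against 8.86% at 55 to 65% GC and 18.1% against 10.5% above 65%. The GC box GGGCGG of Sp and Kruppel-like factors was in 47% of all windows, 73.2% with a summit and 26.7% without. Within classes of base composition the shares were closer, 70.9% against 45.3% at 55 to 65% GC and 91.0% against 82.0% above 65%. CCAAT was in 38.1% of all windows and 41.6% with a summit, and its share under summits went from 28.7% (26.6 to 30.8) in the lowest quintile of pileup to 63.8% (61.6 to 66.1) in the highest. The cyclic AMP element TGACGTCA was in 2.3% of all windows, 4.11% with a summit and 0.894% without. The palindromic core of NRF1, a regulator of mitochondrial genes, was in 1.34%, 2.56% and 0.398%. For the E-box CACGTG the shares were 7.89%, 11.4% and 5.18%. CCAAT and the letters of the cyclic AMP element, NRF1 and the E-box were more frequent under summits in each class of base composition, with overlapping intervals in some. The AP-1 letters TGANTCA were in 7.06% of all windows, 4.68% with a summit and 8.90% without, and the TEAD letters GGAATG in 13.4%, 11.1% and 15.2%. Within classes of base composition these last differences were mostly small. AP-1 letters were in 9.24% of windows with a summit and 9.11% without at 45 to 55% GC and in 2.61% of both above 65%, and TEAD letters in 8.09% and 8.18% above 65%.

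Day 14 peaks came in groups. The median distance from a summit to the nearest other summit was 4639 bp, with quartiles of 1091 and 14489 bp. Consecutive summits were a mean of 43.2 kb apart. A neighbour lay within 1 kb for 23.3% of peaks, within 10 kb for 66.9% (66.5 to 67.3) and within 100 kb for 97.7%. Tall peaks were the least often accompanied, with a neighbour within 10 kb for 56.3% of the highest decile. When peaks were joined across gaps of at most 0.5 of 25 kb, 27285 clusters resulted. Of these, 15243 held a single peak, 11743 held 2 to 9 peaks and 299 held 10 or more. The 299 held 4083 peaks (7.37%) over a median span of 48.7 kb.

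The largest clusters lay over a few named loci. The cluster with the most peaks, 47 over 65.3 kb (chr19:5786519-5851824), spanned the noncoding RNA genes Malat1 and Neat1 and the neighbouring gene Frmd8. Its pileups ran from 20 to 154, its widths from 136 to 2587 bp, and peaks covered 35.5% of it. The next cluster held 46 peaks over 88.2 kb from Vasp, an actin regulator, through Ppm1n, Rtn2 and Fosb to the repair gene Ercc1 (chr7:19257456-19345667). A cluster of 42 peaks over 128.1 kb held Jund, Pde4c, Rab3a and Ifi30 (chr8:70649304-70777403).

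Some clusters held a single named coding gene. That of the chaperone gene Hspa8 had 31 peaks over 41.9 kb, of which 1 summit lay within 1 kb of a gene end and 7 peaks met the gene or its 10 kb flanks. The cluster with Dusp1, a phosphatase that switches off MAP kinases, had 31 over 93.1 kb, 13 of them at the gene or its flanks. A cluster of 28 over 110.7 kb lay within Tns1, which encodes the adhesion protein tensin 1, with no summit within 1 kb of a gene end. The cluster with Lncpint, a noncoding RNA gene, held no named coding gene and had 26 peaks. With 4 named coding genes each, the cluster of Nr4a1 and Grasp held 27 peaks and that of Nav1 and Csrp1 held 26.

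Among clusters of 15 or more peaks, the one with the most per length was at Thbs1, which encodes thrombospondin 1, a matrix protein that can activate TGF-beta. It had 24 peaks in 19.3 kb (chr2:118110166-118129505), and peaks covered 53.9% of that stretch. Their pileups ran from 22 to 95 with a median of 31.5, summits were a median of 673 bp apart, and 19 of the 24 met the gene body. Nfkbia, which encodes an inhibitor of NF-kappa-B, had 17 peaks in 18.8 kb. Both were singled out for density after their values were seen.

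**Figure D4:**
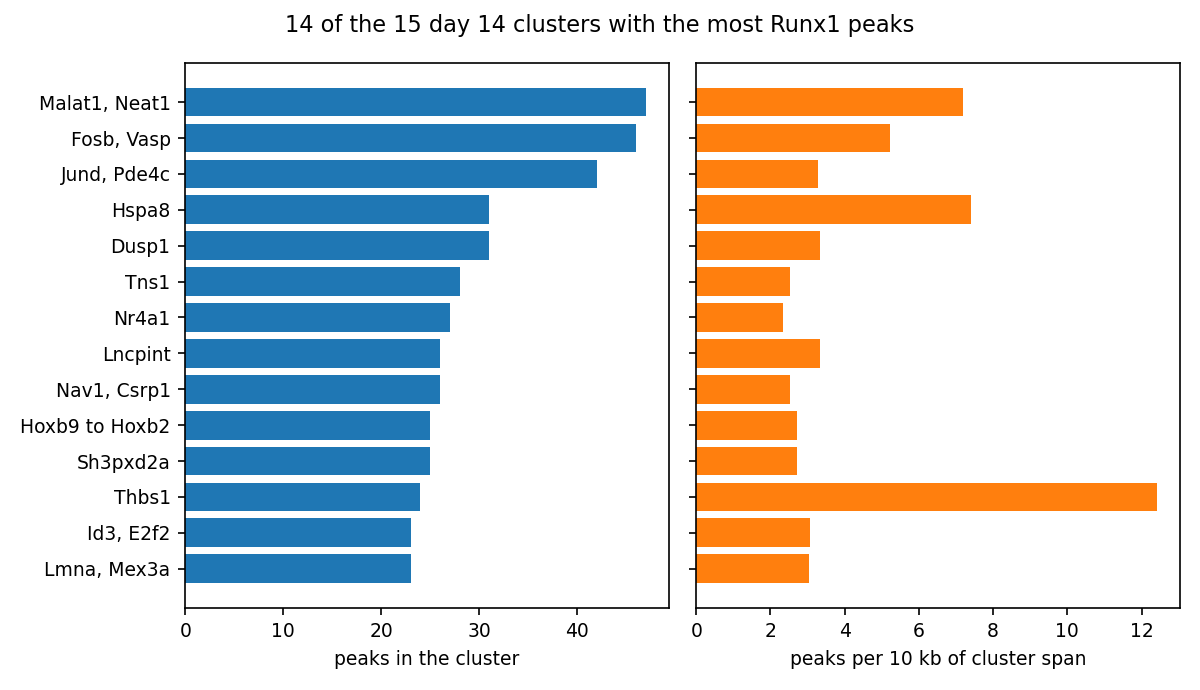
Number of peaks (left) and peaks per 10 kb of span (right) for 14 of the 15 day 14 clusters with the most peaks, named by genes they hold. Malat1 and Neat1 lead in number with 47, and Thbs1 leads in density with 12.4 peaks per 10 kb.

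At day 14, 15592 of 20661 protein-coding genes (75.5%) had a Runx1 peak that met the gene or its flanks of 10 kb. The median gene had 2 peaks and the mean was 2.67, and 108 genes had 20 or more. Gse1, a component of a histone demethylase complex, had the most with 48, in 353 kb of chromosome 8. Arhgap26 had 44, Pakap 42 and the repair gene Rad51b 40. Tns1 and the nuclear receptor Rora had 39 each, and the calcium channel Cacna1c and the RNA-binding Rbms3 37 each. Tns3, the forkhead gene Foxp1, Wwox and the phosphodiesterase Pde4d had 35 each, and Ctif, Nfia and Frmd4a 34 each. Per length these genes differed, from 16.6 peaks per 100 kb at Tns1 to 2.65 at Pde4d. The median over protein-coding genes with their flanks was 3.69, and the density over the whole span of the chromosomes was 2.32.

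Long genes ranged from none to many. Among 211 named genes of 500 kb or more, 24 had 20 or more peaks and 24 had none. The longest without a peak were Csmd3 (1212 kb), the cadherin Cdh12 (1150 kb), the neuregulin Nrg3 (1108 kb), the synaptic adhesion genes Nlgn1 (911 kb) and Lrrtm4 (791 kb), Dpp6 (910 kb) and Cntnap5a (903 kb). Mdga2, Ralyl and Mgat4c followed. Many of these are best known from the nervous system. At the short end, 25.1% of genes under 2 kb had a peak in the gene or the 10 kb on either side, and the share went up to 93.1% at 100 to 200 kb.

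The Runx genes themselves held peaks. Runx1 had 24, with pileups from 18 to 117 and a median of 29, and 23 of them met the gene body. Runx2 had 14, with a fold of 16.9 at the highest, Runx3 4 with a highest pileup of 46, and Cbfb 6 with a highest pileup of 118. In the wider list of Runx factors, Cbfb and the Tle and Eto-family corepressors all 13 genes had a peak. The corepressor Tle1 led it, with a pileup of 239 and a fold of 48.6 at a summit 3 bp from the gene end, then Tle4 (236) and Cbfa2t2 (198).

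Gene families were compared by the share of members with a peak, beside 75.5% over all protein-coding genes. They were also compared by distinct peaks per 100 kb of their merged windows. The density over the whole span of the chromosomes, genes or not, was 2.32, and the median protein-coding gene with its flanks had 3.69. Of 91 families with 5 or more members, 18 had a peak at every member. The Fos and Jun genes, which encode AP-1, were the densest by far, with 7 of 7 members and 32.4 peaks per 100 kb. Fosb had 19 peaks with pileups from 18 to 143, Fosl2 and Junb had 10 each, Fos and Jund 6 each, and Jun and Fosl1 5 each. The tallest peak of the family was that of Jun, with a pileup of 182 and a fold of 25.4, and the smallest maximum was 86, at Fosl1. The Bach and Maf genes, relatives of AP-1, had peaks at 8 of 8 members and 10.1 per 100 kb, with the highest pileup at Mafk (198).

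At genes of TGF-beta signalling and the MAP kinase pathway all or nearly all members had a peak, as did most genes of their length. TGF-beta ligands, receptors and binding proteins had a mean of 11.2 peaks and a peak at 10 of 10 members. Tgfbr1, a signalling receptor, had a highest pileup of 176, the matrix protein Ltbp2 173, in a flank outside the gene, and its relative Ltbp4 131. Tgfb1, the ligand, had 10 peaks, with a fold of 15.6 at the highest. By number Ltbp1 led, with 25 peaks. The Smad genes, which carry the TGF-beta signal to the nucleus, had peaks at 8 of 8. Smad2 reached the highest pileup of the family (152) with a single peak, while Smad3 had 22 peaks. Dusp genes had peaks at 21 of 22 members, with Dusp27 without, and 11.2 per 100 kb. MAP kinases and their kinases (42 of 42) and phosphodiesterases (24 of 24) were complete.

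Most matrix genes were covered nearly as fully, and many of them are long. The median length was 110 kb for collagens and 56.4 kb for integrins. Of all protein-coding genes of 100 to 200 kb 93.1% had a peak, and of those of 50 to 100 kb 89.9%. A summit lay within 1 kb of a gene end at 22 of 42 collagens and 15 of 26 integrins, beside 57.5% of all protein-coding genes. Collagens had peaks at 39 of 42 members, with the highest pileups at Col1a2 (166), Col7a1 (162) and Col5a3 (152), and none at Col4a4, Col20a1 and Col10a1, the collagen of hypertrophic cartilage. All 11 laminins had a peak, led by Lama5 (150). Integrins had peaks at 23 of 26 members, and the members without, Itgal, Itgad and Itgax, encode subunits of leukocytes. Itgam, also a leukocyte subunit, had 1 peak, with a pileup of 35. Matrix metalloproteases had them at 16 of 23 (69.6%, 49.1 to 84.4), with an interval that contains the 75.5% of all protein-coding genes. Mmp28 (206) and Mmp24 (137) led them, and Mmp20, Mmp1b, Mmp12 and Mmp1a were among the 7 without.

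Families of protein synthesis and vesicle traffic were marked close to gene ends. Mitochondrial ribosomal proteins had a peak at 78 of 78 members and a summit within 1 kb of a gene end at 72, beside 57.5% of all protein-coding genes. Their mean was 2.22 peaks, and Mrpl17 had the highest pileup (251). Cytosolic ribosomal proteins had them at 77 of 80, 73 with a summit within 1 kb of a gene end, led by Rpl15 (233) and Rpl37 (216), with none at Rpl39l, Rpl10l and Rpl32l. Rab GTPases, which direct vesicle traffic, had them at 55 of 55, 48 within 1 kb of a gene end, led by Rab22a (257) and Rab10 (255). Histone genes had them at 66 of 67, 61 within 1 kb of a gene end, but short and crowded genes share peaks, and the 250 pairs of gene and peak came from 77 distinct peaks.

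Hox genes, which set position along the body axis, were unevenly marked. Peaks lay at 28 of 39 members (71.8%) and 11.2 per 100 kb. Hoxa3 had 24 and Hoxb3 19, both with overlapping neighbours, and Hoxc4, Hoxd10, Hoxd11 and Hoxa11 were among the 11 without. Clustered protocadherins, cell-surface genes of neurons, had peaks at 35 of 57 members. The 22 beta genes had none, while the 12 gamma-A genes, whose annotated bodies overlap, had a median of 11 peaks. The 271 pairs of gene and peak in the whole family came from 14 distinct peaks.

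At the other end were families of sensory, reproductive and skin biology. No peak lay at any of 28 alpha-defensins, 22 major urinary proteins, 25 prolactin genes or 11 Skint genes. A count of 0 of 28 allows a share of up to 10.7%, 0 of 22 up to 13.6%, 0 of 25 up to 12% and 0 of 11 up to 27.3%. The Skint genes are not short, and their merged windows came to 1688 kb. Vomeronasal receptors of type 1 had peaks at 2 of 230 members, Vmn1r4 (pileup 175) and Vmn1r40 (23), and those of type 2 at 2 of 122. Odorant receptors had them at 44 of 1104 (3.99%, 2.98 to 5.31), led by Olfr15 (156) and Olfr288 (145). Of the 44, 6 had a summit within 1 kb of a gene end. Keratin-associated proteins of hair had them at 4 of 56, from 2 distinct peaks. Cytochrome P450 families 2, 3 and 4, which oxidise drugs and lipids, had them at 22 of 71 (31.0%), led by Cyp2r1 (170), a vitamin D hydroxylase. Keratins had them at 18 of 53, led by Krt78 (143).

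Other transcription factor families were covered in full or in part. GATA factors (5 of 5, 56.6 to 100%), STAT factors (7 of 7, 64.6 to 100%) and interferon regulatory factors (9 of 9, 70.1 to 100%) were complete, and Stat2 led the STAT factors (179). The 75.5% of all protein-coding genes lies within these intervals and those of the Kruppel-like, ETS, forkhead and Sox families. It lies below that of the nuclear receptors (80.5 to 99.3%). Kruppel-like factors had peaks at 14 of 16, led by Klf6 (219) and Klf7 (215), with none at Klf17 and Klf14. ETS factors had them at 21 of 23, led by Etv5 (211) and Gabpa (166). Ehf, an ETS factor of epithelia, and Spic, of macrophages, had none, while the myeloid factor Spi1 had 2 peaks with a highest pileup of 63. Forkhead genes had them at 29 of 41 (70.7%), with 35 at Foxp1, 16 at Foxn3 and none at Foxa1 and Foxa2, which act in epithelia of endodermal origin. Foxj1, an epithelial marker, had 1, with a pileup of 83. Sox genes had them at 13 of 18, led by Sox8 (157). The neural crest factor Sox10 and the endothelial factor Sox17 had none, while Sox18, also endothelial, had 6 with a highest pileup of 56. Nuclear receptors with symbols that begin with Nr had them at 24 of 25, with the clock gene Nr1d2 highest (225). Nr4a1 was the most crowded of these (14 peaks). Nuclear receptors with other symbols, such as Rora with 39 peaks, were not in this list.

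Receptors and their ligands were covered to different degrees. The 75.5% of all protein-coding genes lies within the interval of each family named here except the solute carriers. Of 17 receptor tyrosine kinases for growth factors, 16 had a peak. Ddr2, a receptor for fibrillar collagen, was highest (217) with 12 peaks, Igf1r had 16 peaks, and Kit, the stem cell factor receptor, had none. Wnt ligands had peaks at 18 of 19, with none at Wnt7a, and all 10 Frizzled receptors had one, led by Fzd5 (173). Fibroblast growth factors had them at 14 of 20 (70%). ADAMTS proteases of the matrix had them at 18 of 19, led by Adamts1 (153), with 22 peaks at Adamts2 and none at Adamts18. Solute carriers, the largest transporter family, had them at 304 of 362 (84.0%, 79.8 to 87.4).

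Other immune and neuronal families varied widely, beside 75.5% of all protein-coding genes. Killer cell lectin-like receptors had peaks at 2 of 25 members and beta-defensins at 8 of 42, while guanylate-binding proteins had them at 9 of 10. Type I interferons had peaks at 6 of 18 genes, led by Ifnk (58) and Ifna15 (56), and CC chemokines at 13 of 25, led by Ccl25 (198) and Ccl2 (107). Interleukins had them at 23 of 33, with Il1a highest (151) and Il1b without. MHC genes had them at 23 of 38, led by H2-D1 (152). GABA-A receptors, the inhibitory channels of the brain, had them at 9 of 16 and 0.663 per 100 kb, and none of them exceeded 56. Glutamate receptors had them at 22 of 26 (84.6%, 66.5 to 93.85), with an interval that contains the share of all genes. Their median length was 279 kb, and 90.7% of all protein-coding genes of 200 to 500 kb had a peak. Their density was also 0.663 per 100 kb, so that the families are ordered differently by share and by density.

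**Figure D5:**
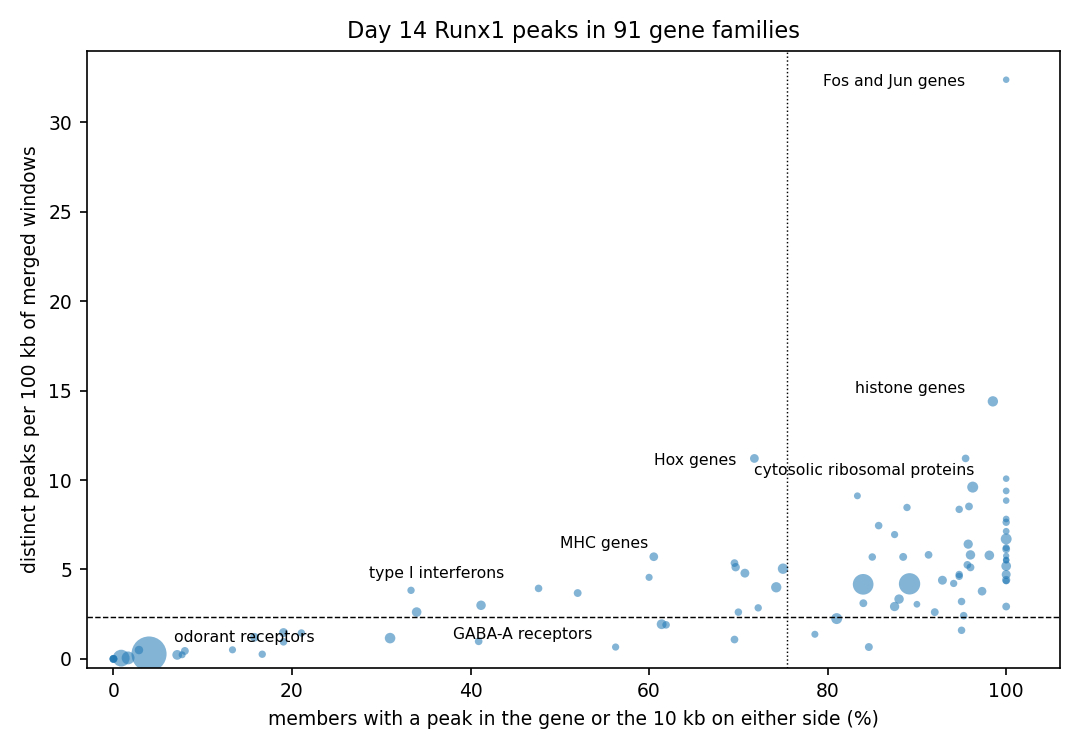
Share of members with a peak (horizontal) against distinct peaks per 100 kb of merged member windows (vertical) for 91 gene families, with point size growing with the number of members. The dotted line is the share of all protein-coding genes, 75.5%, the dashed line the density over the whole span, 2.32, and the Fos and Jun genes stand at 100% and 32.4.

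Marker genes of lung cell types were used to check the label of the cells, with the limit that a peak is not expression and many genes have one. Peaks lay at 11 of 12 general fibroblast markers (all but Lum), 10 of 10 alveolar fibroblast markers, 12 of 12 fibrotic fibroblast markers and 8 of 8 markers of pericytes and smooth muscle. They lay at 9 of 10 endothelial markers, 7 of 10 myeloid, 7 of 10 epithelial, 5 of 10 lymphocyte and 3 of 6 mesothelial markers. The share over all protein-coding genes was 75.5%, close to the myeloid and epithelial counts. The median over members of the highest pileup was 78.5 for general fibroblast markers, 65.5 for alveolar, 42 for fibrotic, 57 for endothelial, 56.5 for pericyte and smooth muscle, 14 for mesothelial, 33.5 for myeloid, 35.5 for epithelial and 21.5 for lymphocyte markers.

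Levels differed among the fibroblast markers. Fn1, which encodes fibronectin, had a highest pileup of 170 and Col1a2, whose promoter drives Cre in these mice, 166. Col1a1 had 127 and Col3a1 63, both at peaks in the flanks outside the gene, and Pdgfra had 39. Fibrotic markers spread widely, from Ltbp2 at 173 and Pmepa1 at 120 to Cthrc1 and Lrrc15 at 23 each and Grem1 at 27. Each of the last 3 had a single peak, and the peak of 173 lay in a flank of Ltbp2, outside the gene. Among markers of other cells, those without a peak included Emcn, Adgre1, Lyz2, Marco, Cd3e, Cd8a, Ms4a1, Gzma, Cdh1, Sftpa1, Sftpb, Msln, Krt19 and Lrrn4. Others had tall peaks. In flanks outside the gene body, the highest pileup was 167 at Nkg7, from 1 peak, 158 at Ager, 157 at Lck, 145 at Cd68 and 114 at Cd79a. Inside the gene body it was 116 at Vwf, 105 at Tek and 102 at Erg. The part of other cell types in these peaks was not tested.

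Along the genome the day 14 peaks followed genes. Chromosome 11 held the most per length, 35.2 peaks per Mb, then chromosome 19 with 29.7, and chromosome 14 the fewest, with 17.4. Over the 19 chromosomes, which share 1 library, peaks per Mb and protein-coding genes per Mb went together with a Spearman correlation of 0.851 and a Pearson r of 0.836, given as a description. Peak-free stretches of over 1 Mb numbered 243, came to 469 Mb in all and held 1700 protein-coding genes. Of these genes, 636 were odorant receptors and 233 vomeronasal receptors. The longest stretch, 5.54 Mb of chromosome 15, held 1 protein-coding gene, the cadherin Cdh9.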

How the data were processed

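Cells were fixed in formaldehyde and frozen, and ChIP and input libraries were amplified with Nextera primers, per the labels' protocols. The ChIP antibody was against Runx1 (Abcam), per the labels. BWA, SAMtools and MACS2 were used with mm10, per the submitters' processing notes. Per the file headers, the authors called peaks with MACS 2.0.10.20120913 against the day 14 input, at a q-value cutoff of 0.01, with a genome size of 1.87 Gb and the larger library scaled to the smaller. The deposited list gives, per the file headers, a pileup (signal), −log10 p-values and q-values, and a fold enrichment (a ratio). The sources used here do not give the alignment settings or how duplicates were treated.

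Summits, peaks and clusters were set against RefSeq genes and promoter windows of GRCm38.p6 with Python 3.11.15, pandas 2.3.3 and numpy 2.4.6. The steps were tested on simulated data. A peak belonged to a gene if it met the body or the 10 kb on either side, by 1 bp or more. The highest pileup given for a gene can thus come from a peak in its flanks. Peaks on X, Y and the mitochondrial genome were left out. The depth is 1 ChIP and 1 input library, so precision across animals is unknown.

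The members, families and markers were chosen with earlier results of these data known, and family patterns were corrected when their matches were read. Named genes are those nearest (within 100 kb) to the 25 highest pileups, 10 highest folds and 10 widest peaks, the 15 genes with the most peaks, the genes of the 10 largest clusters, the 10 longest without a peak, up to 4 members per family with the highest pileup and up to 4 without a peak, and Runx1, Runx2, Runx3 and Cbfb. Markers, and members named for their number of peaks, were added to these. A few items are not reported here. Alternatives were stricter q and fold thresholds, other distances and other gene windows.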

Additional observations from a re-analysis of the deposited data

Results flagged for a closer look

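The comparisons above used chromosomes 1 to 19, and 3 sets of day 14 peaks outside them held signal. The mitochondrial genome held 15 peaks, with pileups from 1838 to 3957 and folds from 1.37 to 2.59. Chromosome X held 932 peaks, with pileups from 13 to 216 and folds from 2.31 to 45.1. Chromosome Y held 6 peaks, with pileups from 21 to 58 and folds from 2.25 to 6.51.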

How the results depend on the processing

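No paired analysis was possible because the description rests on 1 ChIP library and its input. At a −log10 q of 5 or more, the median width was 304 bp, 31.2% of summits were within 1 kb of a gene end, 63.8% had a neighbour within 10 kb and 74.6% of protein-coding genes had a peak. At a fold of 5 or more, 33168 peaks remained, with a median width of 392 bp, 38.0% near a gene end, 61.0% inside a gene, 50.2% with a neighbour, 45 clusters of 10 or more and 70.8% of genes with a peak. With protein-coding genes only, 24.3% of summits were near a gene end and 52.7% inside a gene. The gene-end share was 40.8% at 2.5 kb, 31.6% by any bp of the peak and 24.5% by starts only. Neighbours were found for 51.7% of peaks within 5 kb and 85.1% within 25 kb. Joining at 5 kb gave 39 clusters and at 25 kb 947. Genes with a peak came to 67.3% by the body only, 57.5% within 1 kb of a gene end and 70.2% by the nearest gene. Families without a peak numbered 8 by the body only and 8 within 1 kb of a gene end, each time with the same 4 among them. By the nearest gene they were 3, without the prolactin family. Without the 86 peaks of high implied background, an alternative added after seeing the data, 29.9% of summits were near a gene end. The cause of these moves was not tested beyond the fewer or more peaks and genes that each setting admits.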

Other observations

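Day 14 peaks also differed among gene types that the families do not cover. In or within 10 kb of a peak were 59.6% of 12408 long noncoding RNA genes, 62.1% of 391 tRNA genes and 56.1% of 1136 microRNA genes, beside 75.5% of protein-coding genes. Pseudogenes followed at 23.6% of 8884, ribosomal RNA genes at 9.84% of 61 and immunoglobulin and T cell receptor V segments at 1.27% of 394. With a window of 1 kb on either side the tRNA genes kept 47.6% and the microRNA genes 16.1%.

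Symbols that share their leading letters made 267 groups of 10 or more protein-coding genes. All members of 89 groups had a peak, and 10 groups had none. Apart from families described above, those without were Aadacl, Speer, Klra, Sprr and Esp genes. Klra genes encode receptors of natural killer cells, Sprr genes encode proteins of the skin barrier, and Esp genes encode secreted pheromone peptides.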
